A study of Homo sapiens with 8 samples.

Results

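The genes described here are 10 markers of white blood cells: PTPRC, CD3E, CD2, CD8A, CD79A, MS4A1, CSF1R, CD68, CD14 and TPSAB1. They were chosen by symbol as markers of T cells, B cells, myeloid cells and mast cells, and all 10 are among the 18664 genes of the deposited table. RNA-sequencing was performed on total RNA of HT29, a human colon cancer cell line of epithelial origin, in 4 shALDH1A1 libraries and 4 CTRL libraries, and both groups were grown with 10% FBS. The shALDH1A1 libraries carry the genotype ALDH1A1 knockdown, and the study's methods describe stable lines made with lentiviral hairpins. The CTRL libraries are named shControl in their titles, have the genotype WT and are called parental in the design text, so whether they carry a control hairpin is not settled by the labels. No label states that the libraries of a group came from separate cultures, so each test measures the spread between these libraries, which may be technical.

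Leukocytes arise in the bone marrow and lymphoid organs, and their surface receptors define their lineages. PTPRC encodes CD45, the tyrosine phosphatase on nearly all nucleated blood cells. T cells recognise antigen through a receptor joined to the CD3 chains, B cells through an immunoglobulin joined to CD79, macrophages and monocytes depend on the CSF1 receptor, and mast cells fill their granules with tryptase. None of these cells is part of an epithelial cell line, whereas in tissue of the gut they lie in the mucosa beside the epithelium.

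RNA of all 10 markers was counted in the CTRL libraries and very little of it in the shALDH1A1 libraries. Of 40 values in each group, from 10 genes and 4 libraries, 37 were above 0 counts in CTRL and 11 in shALDH1A1. The 10 genes together had 807, 26, 1087 and 327 counts in CTRL replicates 1 to 4, compared with 1, 20, 18 and 0 in the shALDH1A1 libraries of the same order. Every CTRL library thus had more marker counts than every shALDH1A1 library, although CTRL replicate 2, the shallowest library, came close. Libraries held 536575 to 1908803 counts in shALDH1A1 and 291260 to 4137111 in CTRL. The order of the CTRL libraries by depth was also their order by marker counts, whereas the deepest shALDH1A1 library had 1 marker count.

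As a share of library counts, the markers took 0.0348% in CTRL replicate 1 (95% Wilson interval 0.0325 to 0.0373%), 0.00893% in replicate 2 (0.00609 to 0.0131%), 0.0263% in replicate 3 (0.0248 to 0.0279%) and 0.0196% in replicate 4 (0.0176 to 0.0219%). In shALDH1A1 they took 0.00144% in replicate 2 (0.000931 to 0.00222%) and 0.00107% in replicate 3 (0.000677 to 0.00169%). Replicate 1 had 1 count of 1908803 and replicate 4 had 0 of 536575, which allows a share of up to 0.000559%. No interval of a CTRL library touched that of a shALDH1A1 library. Intervals and floors cover counting error only, since PCR copies of a molecule were not marked. Fewer cells of a type and less RNA per cell cannot be told apart in bulk RNA.

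**Figure D1:**
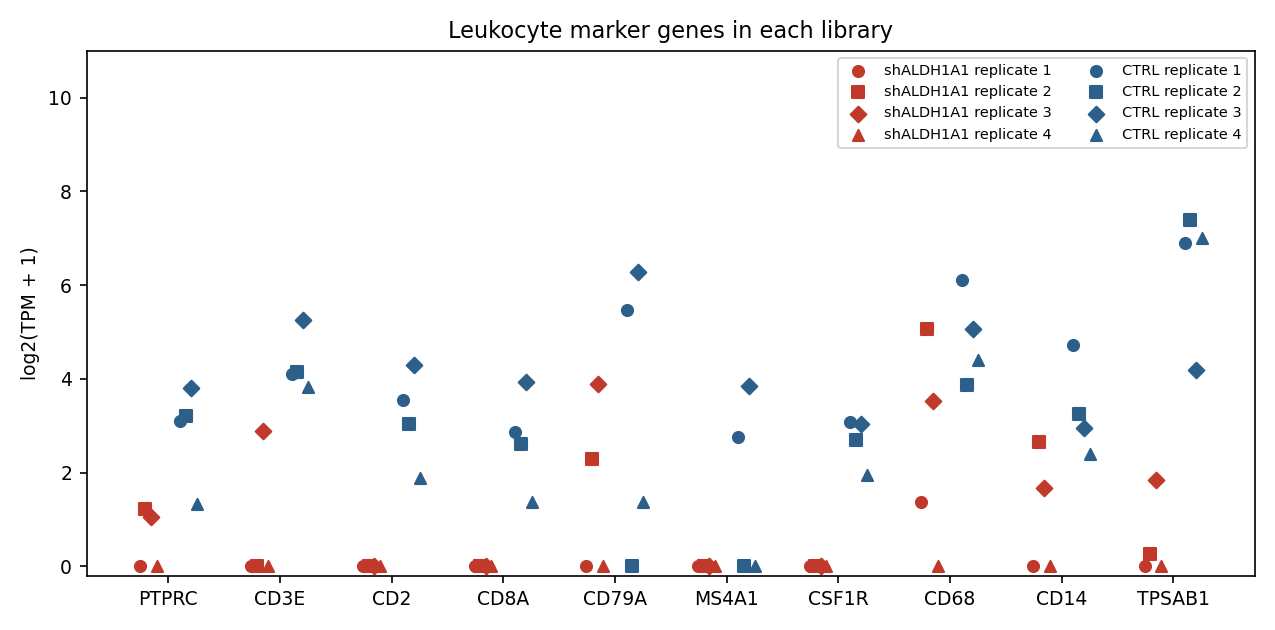
Level of each of the 10 markers as log2(TPM + 1), with 1 point per library (red shALDH1A1, blue CTRL, symbol by replicate number). CD2, CD8A, MS4A1 and CSF1R are at 0 in all 4 shALDH1A1 libraries, and CD68 reaches 32.2 TPM in shALDH1A1 replicate 2, above 2 of the CTRL libraries.

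The marker that stands for all leukocytes, PTPRC, lies at chr1:198607587-198726605 on the plus strand of GRCh37. It had 71, 1, 175 and 12 counts in CTRL replicates 1 to 4 against 0, 2, 2 and 0 in shALDH1A1 replicates 1 to 4. CTRL replicates 1 and 3 hold nearly all of it, and CTRL replicate 2 had fewer counts than 2 of the shALDH1A1 libraries. Its level was 7.55 ± 4.66 TPM (SD, n = 4) in CTRL and 0.598 ± 0.697 TPM (SD, n = 4) in shALDH1A1. After scaling by TMM, a factor that adjusts library sizes for composition, the counts summed over CTRL were 14.8 times those of shALDH1A1 (exact 95% counting interval 5.70 to 54.7), and 9.38 times without CTRL replicate 3. The groups overlapped on that scale (exact two-sided permutation test on scaled counts, p = 0.0857). PTPRC is spliced into several forms that differ between lymphocyte states. Of its 6 transcripts in the table, 4 had counts, and all 4 counts of the shALDH1A1 libraries were assigned to XM_006711474.3, which also held 61.1% of the CTRL counts.

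Markers of T cells were present in every CTRL library. CD3E (chr11:118175445-118186890, plus strand) encodes the epsilon chain of CD3, which signals for the T cell receptor. It had 37, 2, 127 and 25 counts in CTRL replicates 1 to 4, and among shALDH1A1 libraries 3 counts in replicate 3 and 0 in the others. Its level was 20.8 ± 10.9 TPM in CTRL and 1.61 ± 3.23 TPM in shALDH1A1 (SD, n = 4 each), without overlap. CD3E was lower in shALDH1A1, at -3.39 ± 1.03 on the log2 scale (fitted fold change ± SE, adjusted p = 0.0134, edgeR's quasi-likelihood test). The ratio of the summed counts was 14.5 (exact 95% counting interval 4.90 to 71.1), and 9.53 without CTRL replicate 3. The call was lost without shALDH1A1 replicate 1, 2 or 4, with adjusted p = 0.0982, 0.0725 and 0.101 from the same test.

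CD2 (chr1:117297052-117311851, plus strand), an adhesion receptor of T and NK cells, had 29, 1, 76 and 6 counts in CTRL replicates 1 to 4 and 0 in each shALDH1A1 library. CD8A (chr2:87011733-87035519, minus strand), the co-receptor chain of cytotoxic T cells, had 24, 1, 81 and 5 counts in CTRL and likewise 0 in each shALDH1A1 library. The order of the CTRL libraries was the same for both genes, with replicate 3 highest and replicate 2 at a single count. With a floor of 3 counts over the shALDH1A1 group, CD2 was at least 8.52-fold higher in CTRL and CD8A at least 8.45-fold higher, and without CTRL replicate 3 these bounds fell to 5.36-fold and 4.47-fold. For each gene CTRL lay above shALDH1A1 throughout, with p = 0.0286 in an exact two-sided test over 70 regroupings, which is as small as 4 against 4 libraries can give. Of the 17310 genes with counts in any library, 21.9% were separated in this direction. Scaling to library totals or to genes that every cell uses cannot change this p, because 0 counts stay at 0 on any scale. On the scale of genes that every cell uses, the bounds were 1.04-fold for CD2 and 1.03-fold for CD8A.

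B cell markers were uneven among the CTRL libraries. CD79A (chr19:42381349-42385439, plus strand), a signalling chain of the B cell receptor, had 76, 0, 197 and 2 counts in CTRL replicates 1 to 4 and 0, 1, 5 and 0 in shALDH1A1. MS4A1 (chr11:60223319-60238225, plus strand), which encodes CD20, had 36, 0, 135 and 0 counts in CTRL and 0 in each shALDH1A1 library. Only CTRL replicates 1 and 3 stood clear of the shALDH1A1 libraries for either gene. CD79A had 10.5 times the scaled counts in CTRL (exact 95% counting interval 4.75 to 28.8), or 5.80 times without CTRL replicate 3. MS4A1 was at least 13.01-fold higher over the group, or at least 5.36-fold higher without that library. Neither difference passed an exact two-sided permutation test over libraries (p = 0.343 for CD79A and p = 0.429 for MS4A1).

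The myeloid markers reached all CTRL libraries. CSF1R (chr5:149432854-149492935, minus strand), the receptor for CSF1 on monocytes and macrophages, had 53, 2, 79 and 17 counts in CTRL replicates 1 to 4 and 0 in each shALDH1A1 library. Its level in CTRL, 5.75 ± 2.10 TPM (SD, n = 4), varied less in relation to its mean than that of any other marker. CSF1R was lower in shALDH1A1 with adjusted p = 0.000725 (edgeR's quasi-likelihood test). It was at least 11.5-fold higher in CTRL, and at least 10.7-fold without CTRL replicate 3. CD14 (chr5:140011313-140013285, minus strand), the co-receptor for bacterial lipopolysaccharide, had 58, 1, 23 and 9 counts in CTRL and 0, 2, 1 and 0 in shALDH1A1. Its ratio was 6.92 (exact 95% counting interval 2.30 to 34.2) and 3.82 without CTRL replicate 1, where it was highest, and the groups overlapped (exact two-sided permutation test, p = 0.0857).

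CD68 (chr17:7482809-7485429, plus strand), a lysosomal membrane glycoprotein abundant in macrophages, had more counts in shALDH1A1 than any other marker. Its counts were 201, 2, 145 and 50 in CTRL replicates 1 to 4 and 1, 15, 6 and 0 in shALDH1A1. Levels overlapped, at 33.5 ± 24.2 TPM in CTRL and 11.1 ± 14.8 TPM in shALDH1A1 (SD, n = 4 each). The fitted change of -1.36 ± 1.03 (log2 ± SE) did not pass (adjusted p = 0.264, edgeR's quasi-likelihood test), and on the scale of genes that every cell uses it was 1.00. CD68 overlaps 2 long noncoding RNA genes in the annotation, 1 on its own strand, and the strand setting of the counting is not given in the sources used here. Without strand, reads of these genes cannot be told apart.

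Summed over each group, CD68 counts were assigned to its 2 transcripts of the table in different proportions, a difference that was not tested. All 22 CD68 counts of the shALDH1A1 libraries were assigned to NM_001040059.2 and 0 to NM_001251.3. In CTRL, NM_001251.3 held 95.1% of the counts, with 183, 0, 145 and 50 in replicates 1 to 4, and NM_001040059.2 held 17.5, 2, 0 and 0. CTRL replicate 2 thus shared the pattern of the shALDH1A1 libraries, on 2 counts. CD68 was also the only marker whose longest reference transcript holds Alu-like sequence, 150 bases, Alu being a repeat found across the human genome. Of 19807 genes with a reference transcript, 21.5% hold over 50 such bases. Whether reads of repeats entered the CD68 counts was not tested.

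**Figure D2:**
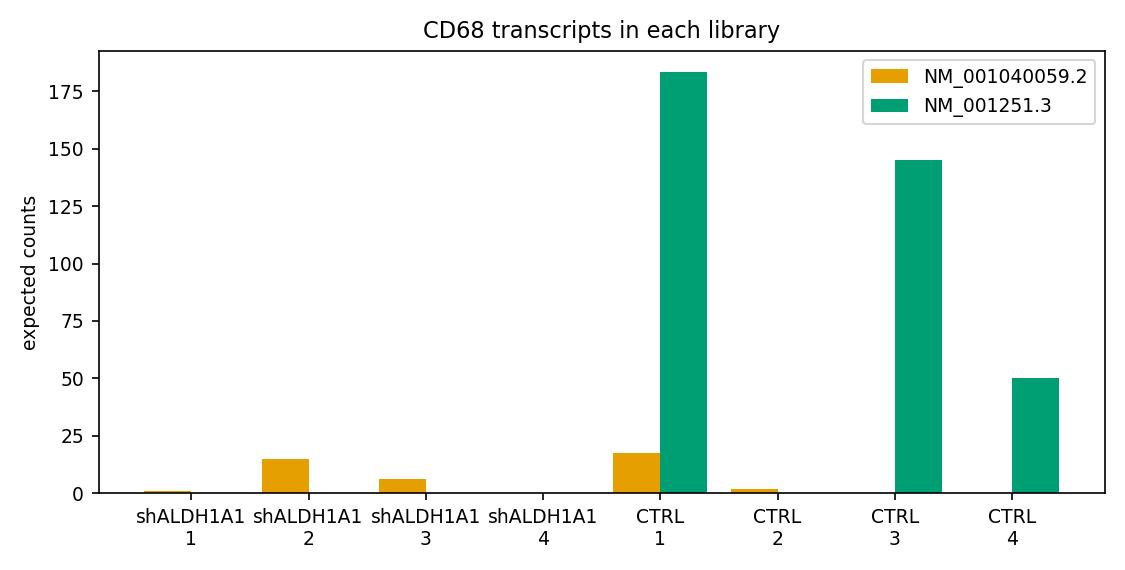
Expected counts of the 2 CD68 transcripts in each library. NM_001251.3 reaches 183 counts in CTRL replicate 1 and is at 0 in every shALDH1A1 library and in CTRL replicate 2, whereas NM_001040059.2 reaches 15 counts in shALDH1A1 replicate 2.

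The mast cell marker TPSAB1 (chr16:1290380-1292555, plus strand) encodes a tryptase, the main granule protease of mast cells. It had 222, 16, 49 and 201 counts in CTRL replicates 1 to 4, and among shALDH1A1 libraries 1 count in replicate 3 and 0 in the others after rounding. Its level was 107.5 ± 63.8 TPM in CTRL and 0.698 ± 1.27 TPM in shALDH1A1 (SD, n = 4 each), without overlap. TPSAB1 was lower in shALDH1A1, at -6.98 ± 1.44 on the log2 scale (fitted fold change ± SE, adjusted p = 0.000864, edgeR's quasi-likelihood test). From the summed counts the ratio was 111, with exact 95% bounds of 19.9 and 4408 from counting error, and 196 when CTRL replicate 3 was left out.

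TPSAB1 has a near-identical neighbour, TPSB2 (chr16:1277272-1280185, minus strand), so the split of reads between them is uncertain. In the most similar of 8 pairs of reference transcripts, the reading frames of 849 bases differed at 4 positions, and the longest identical run was 670 bases. The stretches below, from base 117 to base 176 of the reading frame in GRCh37, are shown because they hold 3 of those 4 differences, which are in capitals.
TPSAB1: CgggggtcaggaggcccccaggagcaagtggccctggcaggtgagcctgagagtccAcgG
TPSB2: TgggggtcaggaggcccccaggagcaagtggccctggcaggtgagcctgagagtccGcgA
TPSB2 had 203, 3, 51 and 124 counts in CTRL replicates 1 to 4, and among shALDH1A1 libraries 2 counts in replicate 2 and 0 in the others. It was lower in shALDH1A1, at -5.35 ± 1.30 on the log2 scale (fitted fold change ± SE, adjusted p = 0.00292, edgeR's quasi-likelihood test), but not on the scale of genes that every cell uses (-2.35, adjusted p = 0.0993). Both tryptase genes were therefore highest in CTRL replicates 1 and 4 by counts and lower in CTRL replicate 3. By TPM, TPSAB1 was instead highest in CTRL replicate 2, at 166.8, against 117.8, 17.2 and 128.1 in replicates 1, 3 and 4.

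Only 4 of the 10 markers passed the filter on low counts: CD3E, CSF1R, CD68 and TPSAB1. Each of them reached the minimum in all 4 CTRL libraries, and CD68 in 1 shALDH1A1 library, so passing already required counts in CTRL. The 6 markers that did not pass had 1 or 0 counts in CTRL replicate 2, and the 4 that passed had 2 or more. Of the 4, 3 were called lower and 0 higher, and 0 were higher at an unadjusted p under 0.05, while 33.0% of the 7971 tested genes were called lower and 2.60% higher. With no filter, all 10 markers were called lower by edgeR, where 39.6% of genes were. DESeq2 called 8 of 10 lower, all but CD79A and MS4A1, beside 49.2% of its genes, and limma on log2(TPM + 1) called 7 of 10 lower, all but CD79A, MS4A1 and CD68, beside 30.7%. Without CTRL replicate 2, 5 markers were tested, with PTPRC added, and all 5 were called lower. PTPRC was also added when any 1 shALDH1A1 library was left out, where 2 to 4 of the 5 were called lower.

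The difference between groups depended on what the markers were measured against. A set of 30 genes that every cell uses, such as those for actin, tubulin and ribosomal proteins, made up 1.06 to 4.43% of each CTRL library and 0.0255 to 0.154% of each shALDH1A1 library. Per 1000 counts of these genes, the 10 markers had 7.85, 8.41, 18.3 and 8.29 in the CTRL libraries by number, and 2.05, 9.47, 6.97 and 0 in the shALDH1A1 libraries. Measured in this way the groups overlapped, with shALDH1A1 replicate 2 above 3 of the 4 CTRL libraries. The part that this difference in composition has in the marker result was not tested.

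**Figure D3:**
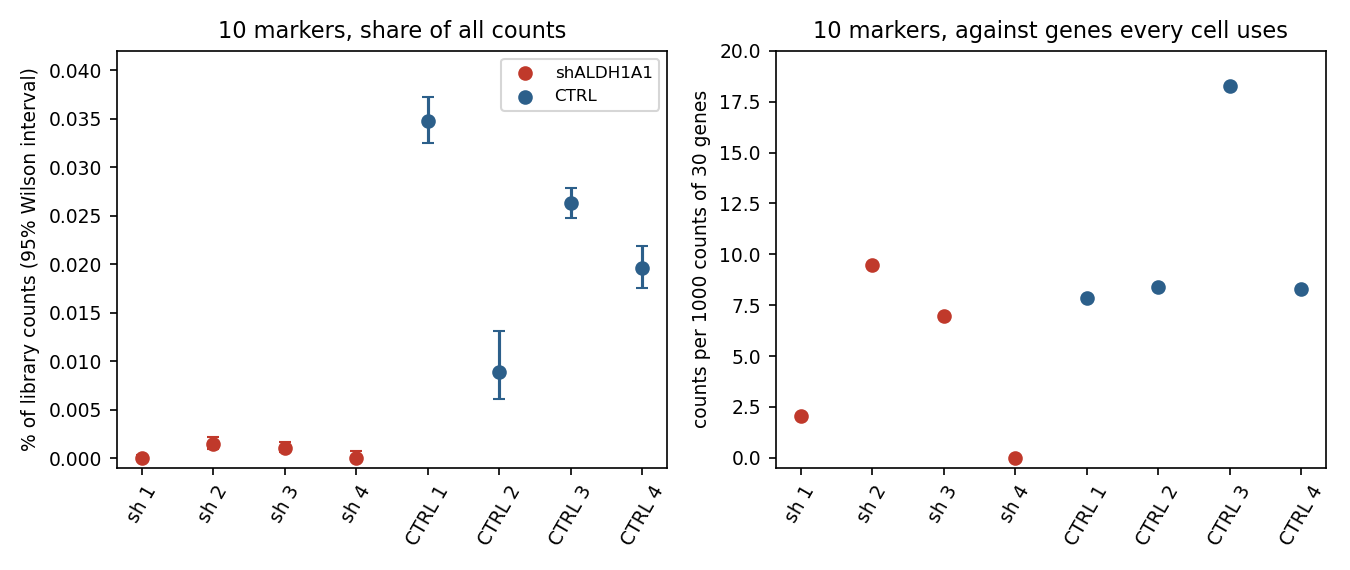
Left, share of each library's counts taken by the 10 markers with its 95% Wilson interval; right, their counts per 1000 counts of 30 genes that every cell uses. The groups are apart on the left, where the lowest CTRL library has 0.00893%, and overlap on the right, where shALDH1A1 replicate 2 has 9.47.

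With those 30 genes as library size, CSF1R and TPSAB1 were still called lower in shALDH1A1, TPSAB1 by -4.24 (log2 fold change, standard error 1.45, adjusted p = 0.0199, edgeR's quasi-likelihood test) and CSF1R with adjusted p = 0.0300. CD3E was no longer called, at -1.01 (adjusted p = 0.464, same test). On that scale 5.39% of tested genes were lower and 40.8% higher, and the median over all tested genes moved on the log2 scale from -1.45 to 1.81. As ratios on that scale, TPSAB1 was 13.5 times higher in CTRL, PTPRC 1.80, CD3E 1.77, CD79A 1.27, CD14 0.841 and CD68 0.502 times. The bounds for the markers at 0 in shALDH1A1 were 1.58 for MS4A1, 1.40 for CSF1R, 1.04 for CD2 and 1.03 for CD8A.

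Among themselves the CTRL libraries held different mixtures of the markers. TPSAB1 made up 72.0% of the summed marker TPM in CTRL replicate 2 and 72.8% in replicate 4, but 38.2% in replicate 1 and 7.29% in replicate 3. The shares of replicate 2 rest on 26 marker counts, 16 of them of TPSAB1, against 807, 1087 and 327 in replicates 1, 3 and 4, and are therefore imprecise. The B cell genes CD79A and MS4A1 together made up 38.0% in replicate 3 and 15.9% in replicate 1, against 0.898% in replicate 4 and 0% in replicate 2. The T cell genes CD3E, CD2 and CD8A made up 29.6% in replicate 3 and between 9.92 and 12.6% in replicates 1, 2 and 4. The myeloid share was highest in replicate 1, at 32.7%. The summed level itself varied less, from 176 to 309 TPM, and in the shALDH1A1 libraries it was 1.59, 43.0, 36.7 and 0 TPM. In shALDH1A1 replicate 2, CD68 and CD14 together made up 87.4% of it, on 15 and 2 counts, with CSF1R at 0.

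**Figure D4:**
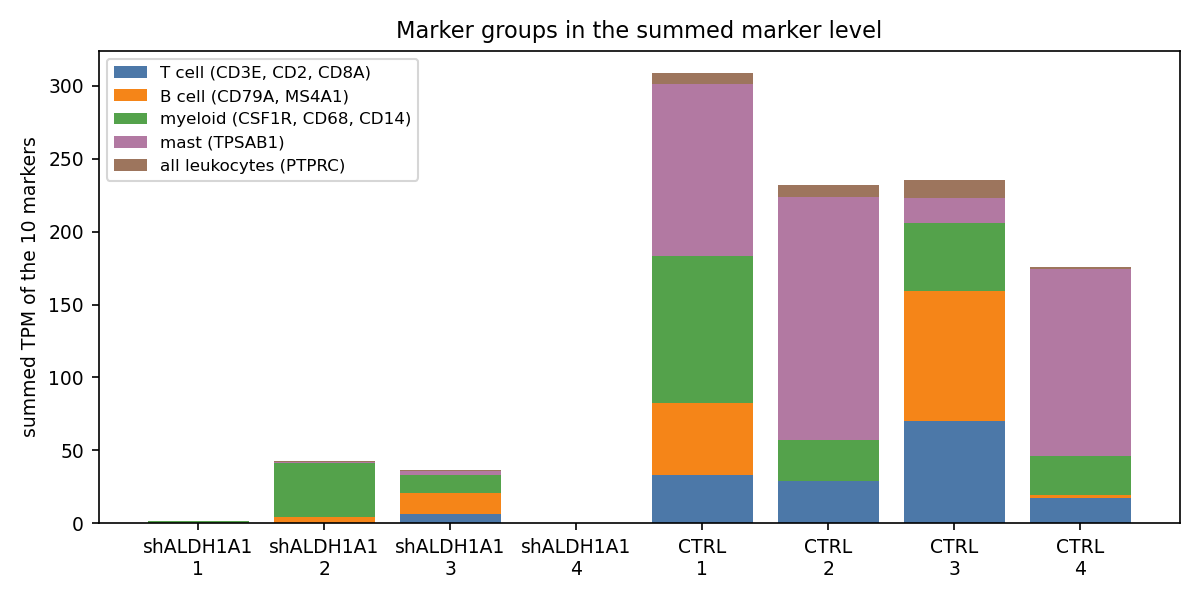
Summed TPM of the 10 markers in each library, stacked by cell type. Mast cell tryptase (TPSAB1) fills 72.0% of the bar in CTRL replicate 2, on 26 marker counts, and 72.8% in CTRL replicate 4. B and T cell genes fill most of the bar in CTRL replicate 3.

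In order of mean TPM in CTRL, the markers ran from TPSAB1 (107.5) through CD68 (33.5), CD79A (30.3), CD3E (20.8), CD14 (11.2), CD2 (9.81), PTPRC (7.55), CD8A (6.80) and CSF1R (5.75) to MS4A1 (4.80). No neighbouring pair in this order kept it in all 4 CTRL libraries.

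Over the 8 libraries, the summed markers correlated best with RAB7A (Pearson r = 0.995), a GTPase of late endosomes, followed by HNRNPD (0.994), an RNA-binding protein, HSPA8 (0.993), a constitutive chaperone, ID4 (0.993), an inhibitor of helix-loop-helix factors, and SQSTM1 (0.993), an autophagy receptor. RAB7A belongs to the set of genes that every cell uses, against which the markers were also measured. Its counts were 505, 22, 534 and 267 in CTRL replicates 1 to 4 and 1, 12, 17 and 0 in shALDH1A1. These values of r, on log2(CPM + 1), are a description over libraries that share depth and scaling.

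Other genes of the same cell types were followed in 8 lists with 123 genes. Of these, 36 passed the filter, 16 were called lower in shALDH1A1 and 0 higher by edgeR, beside 33.0% and 2.60% of all tested genes, and 2 were higher at an unadjusted p under 0.05. DESeq2 called 47 of 99 lower, beside 49.2% of its genes, so its share for the lists was near that of all genes. It called 4 of the 99 higher, beside 1373 of its 14133 genes. On the scale of genes that every cell uses, 2 of the 36 were lower and 11 higher, beside 5.39% and 40.8%. The median log2 fold change of the 36 genes was -2.21, beside -1.45 for all tested genes. As for the markers, passing the filter could rest on counts in a single group.

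Genes of T and NK cells seldom passed the filter. In the T cell list 3 of 20 genes were tested, and the one called lower was IL7R, the interleukin-7 receptor, named after its values were seen. It changed by -2.35 (log2, adjusted p = 0.0429, edgeR's quasi-likelihood test), which became 1.04 (adjusted p = 0.438) on the scale of genes that every cell uses. CD3D, the delta chain of CD3, had 15, 0, 26 and 14 counts in CTRL replicates 1 to 4 and 0 in each shALDH1A1 library, the same direction as CD3E. CD3G, its gamma chain, had 1, 11, 18 and 0 counts in CTRL and 46, 11, 16 and 25 in shALDH1A1, and did not pass the test (log2 fold change 2.11, standard error 1.20, adjusted p = 0.149, edgeR's quasi-likelihood test). The longest transcript of CD3G holds 327 Alu-like bases, and those of CD3D and CD3E hold 0. ZAP70, the kinase that binds the CD3 chains, had 18, 12, 94 and 0 counts in CTRL and 38, 31, 32 and 12 in shALDH1A1, with 0 Alu-like bases. In the cytotoxic and NK cell list KLRD1, an NK cell receptor with 636 Alu-like bases, was the 1 of 13 genes tested and was not called (log2 fold change 2.48, adjusted p = 0.104, same test). NKG7, a granule protein, had 14, 0, 45 and 2 counts in CTRL and 1 in a single shALDH1A1 library, and GZMB, granzyme B, had 11, 1, 18 and 0 against 0, 2, 0 and 1.

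In the B cell list 2 of 14 genes were tested. CD22, an inhibitory receptor of B cells named after its values were seen, was called lower, with 22, 2, 32 and 15 counts in CTRL replicates 1 to 4 and 0 in each shALDH1A1 library, though not on the scale of genes that every cell uses (adjusted p = 0.0913, edgeR's quasi-likelihood test). SPIB, a transcription factor of B and plasmacytoid cells with 322 Alu-like bases, had 41, 65, 52 and 3 counts in CTRL and 196, 191, 193 and 75 in shALDH1A1. By TPM the groups overlapped. CTRL replicate 2, at 186.5 TPM, lay above every shALDH1A1 library (133.4 to 183.7 TPM), and CTRL replicates 1, 3 and 4 had 5.70, 4.78 and 0.58 TPM. SPIB was not called (adjusted p = 0.187, edgeR's quasi-likelihood test). PAX5, the factor that maintains B cell identity, had 4, 18, 4 and 36 counts in shALDH1A1 and 7, 9, 23 and 2 in CTRL. VPREB3 had 9, 0, 11 and 0 counts in CTRL and 1 in shALDH1A1 replicate 2.

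The plasma cell gene JCHAIN, which joins IgA and IgM into polymers, had the highest mean TPM in CTRL of all leukocyte genes listed, though not in shALDH1A1. It had 3920, 145, 6078 and 1253 counts in CTRL replicates 1 to 4 and 9, 3, 24 and 3 in shALDH1A1. The mean level was 1439 ± 555 TPM in CTRL and 26.5 ± 20.2 TPM in shALDH1A1 (SD, n = 4 each), without overlap. The fitted change was -5.41 ± 1.58 (log2 ± SE, adjusted p = 0.0102, edgeR's quasi-likelihood test), and the call was lost on the scale of genes that every cell uses (adjusted p = 0.0856) and without shALDH1A1 replicate 1 or 2 (adjusted p = 0.0520 and 0.0551). MZB1, a chaperone of antibody-secreting cells, had 65, 0, 249 and 4 counts in CTRL and 0 in each shALDH1A1 library. POU2AF1, a B cell coactivator with 67 Alu-like bases, had 107, 14, 399 and 61 counts in CTRL and 15, 22, 21 and 13 in shALDH1A1, and was not called (log2 fold change -0.53, adjusted p = 0.632, same test).

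In the macrophage and monocyte list 3 of 8 tested genes were called lower, a share near the 33.0% of all tested genes. They were AIF1, C1QB and, named after its values were seen, C1QA. AIF1, an actin-binding protein of macrophages, had 156, 5, 27 and 15 counts in CTRL replicates 1 to 4 and 1, 1, 0 and 0 in shALDH1A1 (log2 fold change -4.45, standard error 1.10, adjusted p = 0.00333, edgeR's quasi-likelihood test), and was not called on the scale of genes that every cell uses (-1.24, adjusted p = 0.411). C1QB, a chain of complement C1q, had 300, 4, 54 and 64 counts against 0, 3, 3 and 1. C1QB was lower by -3.40 (adjusted p = 0.0185, same test). This call was lost on the scale of genes that every cell uses (-0.50, adjusted p = 0.703), with a replicate block (0.0575), with limma on log2(TPM + 0.1) (0.0549), and without shALDH1A1 replicate 1 or 4 or CTRL replicate 1 (0.0638, 0.0760 and 0.0756). FCER1G, the signalling chain shared by several Fc receptors, had 81, 6, 13 and 36 counts in CTRL and 0, 13, 2 and 2 in shALDH1A1, and was not called (adjusted p = 0.401, same test). Each of these genes, like CD14 and CD68, was highest in counts in CTRL replicate 1.

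None of the 9 neutrophil genes passed the filter. Their highest shALDH1A1 values were in replicate 2, where the calcium-binding proteins S100A8, S100A9 and S100A12 had 11, 20 and 6 counts. In CTRL, S100A9 had 97, 0, 6 and 15 counts, S100A8 had 40, 0, 2 and 2, and S100A12 had 4 in replicate 1 alone. The groups overlapped for each of these 3 genes, and none passed the test (exact two-sided permutation tests, p = 0.714 for S100A9 and p = 1 for S100A8 and for S100A12).

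In the mast cell list the 2 of 6 tested genes called lower were TPSB2 and CPA3, a share like the 33.0% of all tested genes. CPA3, the mast cell carboxypeptidase, had 139, 5, 26 and 156 counts in CTRL replicates 1 to 4 and 0, 0, 5 and 1 in shALDH1A1 (log2 fold change -3.71, standard error 1.21, adjusted p = 0.0195, edgeR's quasi-likelihood test). By counts CPA3 was highest in CTRL replicates 1 and 4, as the tryptases were, whereas by TPM TPSAB1 was highest in CTRL replicate 2. The call of CPA3 was lost on the scale of genes that every cell uses (-0.87, adjusted p = 0.533) and without shALDH1A1 replicate 1, 2 or 4 (adjusted p = 0.0769, 0.0694 and 0.0654). SIGLEC6, a sialic acid receptor with 182 Alu-like bases, had 246, 503, 382 and 113 counts in shALDH1A1 and 14, 45, 19 and 25 in CTRL, and missed the threshold at a log2 fold change of 3.67 (adjusted p = 0.0587, same test). In the pan-leukocyte list 8 of 13 tested genes were called lower, beside the same 33.0%. CD37, a tetraspanin of blood cells named after its values were seen, had 161, 2, 150 and 62 counts in CTRL replicates 1 to 4 and 0, 2, 0 and 1 in shALDH1A1 (log2 fold change -4.48, adjusted p = 0.00367, same test), and lost its call on the scale of genes that every cell uses (adjusted p = 0.280). CD52, a lymphocyte surface glycoprotein, had 114, 3, 75 and 19 counts in CTRL, with 2, 0, 6 and 0 in shALDH1A1, and missed the threshold (adjusted p = 0.0743, same test). IKZF3, a lymphoid transcription factor with 1004 Alu-like bases, had 1079, 1374, 935 and 459 counts in shALDH1A1 and 84, 425, 161 and 45 in CTRL, without passing the test (adjusted p = 0.303, same test).

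**Figure D5:**
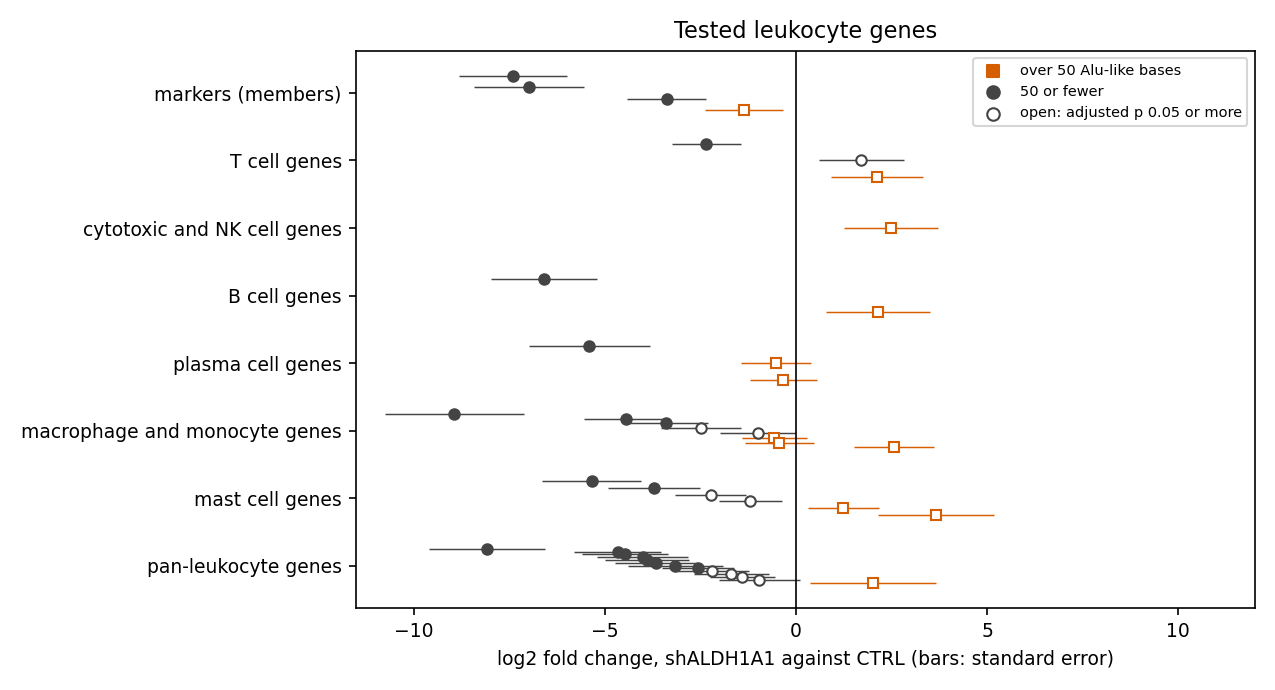
Log2 fold change of each tested leukocyte gene, shALDH1A1 against CTRL, with its standard error, by list. Filled points passed the adjusted threshold, and orange squares have over 50 Alu-like bases in their longest reference transcript. Of those 11 listed genes outside the markers 0 were called lower, against 16 of the other 25. Genes could pass the filter through counts in a single group, as CD22 did with 0 counts in each shALDH1A1 library, so this split depends on the filter. Calls by Alu-like content over all genes are not given.

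Of the 123 listed genes, 20 hold over 50 such bases, and these took 92.1% of the list's counts in shALDH1A1 and 10.3% in CTRL. Of all 7971 tested genes, 2943 hold over 50 such bases. Their share of all library counts is not given, so the shares of the list cannot be read as particular to leukocyte genes. A few genes carried these shares. IKZF3 alone had 53.2% of the shALDH1A1 counts, and with SIGLEC6, SPIB and KLRD1 it had 85.0%. Without these 4 genes the share on genes with Alu-like sequence was 47.5% in shALDH1A1. In CTRL, JCHAIN alone had 41.6% of the counts, and the share without it was 17.7%. Among the markers, CD68 alone took 56.4% of the shALDH1A1 counts and 17.7% of the CTRL counts. ZAP70 and PAX5 hold 0 Alu-like bases and had 113 and 62 counts in shALDH1A1.

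Markers of some other tissues were also lower in shALDH1A1, with 11 of 14 tested stomach genes and 5 of 7 fibroblast genes called, beside 33.0% of all tested genes. No smooth muscle, endothelial or red blood cell gene was called by edgeR, of 6, 1 and 3 tested, and 2, 0 and 0 of them were lower at an unadjusted p under 0.05. DESeq2 called 1, 0 and 0 lower, of 1, 4 and 4 tested. With no filter on low counts, edgeR called 6 of 6 smooth muscle, 3 of 6 endothelial and 0 of 5 red blood cell genes lower. In that setting 39.6% of all genes were called lower. All 14 genes of stomach epithelium had counts in CTRL, where their summed level ranged from 36820 to 455700 TPM, against 185 to 3832 TPM in shALDH1A1, with ATP4A and ATP4B at 0 there. The 7 fibroblast genes summed to 272 to 542 TPM in CTRL and 8.32 to 166 TPM in shALDH1A1, with none at 0 in either group. Smooth muscle genes (6) ranged from 184 to 12000 TPM in CTRL and 13.03 to 659 TPM in shALDH1A1, endothelial genes (6) from 0 to 57.8 and from 1.88 to 39.9 TPM with VWF, CDH5 and TEK at 0 in shALDH1A1, and red blood cell genes (6) from 0 to 3192 and from 0 to 6208 TPM. Platelet genes (5) stayed at or below 29.7 TPM. The 15 colon epithelial genes summed to 287 to 1302 TPM in CTRL and 58.0 to 517 TPM in shALDH1A1. Of these genes 6 were tested and 0 called lower by edgeR, with 0 at an unadjusted p under 0.05, while DESeq2 called 3 lower. The keratin KRT8 had 787, 15, 3025 and 534 counts in CTRL replicates 1 to 4 and 9, 74, 108 and 4 in shALDH1A1. Among the other colon genes, CDX1 was at 0 in shALDH1A1 and had 1, 0, 1 and 0 counts in CTRL. CDX2 had 3 counts in shALDH1A1 replicate 4 and 0 in the other libraries, and MUC2 had at most 2 counts in any library. Some of the list were counted more, such as LGALS4 with 149, 3, 403 and 113 counts in CTRL and 1, 30, 52 and 1 in shALDH1A1. CEACAM5 had 13, 7, 153 and 0 counts in CTRL and 25, 38, 35 and 10 in shALDH1A1. EPCAM had 48, 1, 190 and 25 counts in CTRL and 0, 9, 2 and 0 in shALDH1A1. The part of these tissues in the marker result was not tested. ALDH1A1, the targeted gene (chr9:75515587-75695358, minus strand), had 1858, 83, 1870 and 1000 counts in CTRL replicates 1 to 4 and 3, 1, 1 and 0 in shALDH1A1, and was lower by -7.76 (log2 fold change, standard error 1.61, adjusted p = 0.00086, edgeR's quasi-likelihood test).

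Promoters of the markers were compared as a description of sequence, although the CTRL libraries held different mixtures of the markers. Windows of 250 bases before to 50 after the start were held by RefSeq (GRCh38.p14) for 7 of the 10 markers, in 11 windows, and none was held for CD3E, MS4A1 and TPSAB1. The letters AGGAAGT, on either strand, contain the GGAA core that ETS factors such as the myeloid and B cell regulator PU.1 bind. They were found in 3 of the 11 windows (27.3%), those of PTPRC, CD68 and CD79A, and in 8.24% of all 35116 windows. The matches lie 100 and 57 bases before the start in PTPRC, 66 before it in CD68 and 55 before it in CD79A, and are in capitals below.
PTPRC, chr1:198638910-198638976, plus strand: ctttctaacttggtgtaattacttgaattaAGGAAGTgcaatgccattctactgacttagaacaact
PTPRC, chr1:198638953-198639019, plus strand: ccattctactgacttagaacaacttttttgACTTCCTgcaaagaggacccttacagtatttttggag
CD68, chr17:7579542-7579608, plus strand: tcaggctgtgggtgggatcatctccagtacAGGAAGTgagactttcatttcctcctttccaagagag
CD79A, chr19:41877194-41877260, plus strand: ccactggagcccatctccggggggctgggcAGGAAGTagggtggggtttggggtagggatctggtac
A match of letters is a description and no measurement of binding in these cells.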

How the data were processed

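RNA-sequencing of 8 HT29 libraries was analysed from the table deposited by the authors, which gives expected counts and TPM for 84798 transcripts. Per the study's methods, the authors processed reads with CASAVA and FASTQC, aligned them with HISAT to hg19 and quantified them with RSEM, while the submitters' processing notes name Bowtie2, BWA and GRCh38.p13. The authors' expected counts are not normalized, and 64.7% of non-zero values are not whole (tolerance 0.001). The authors' TPM values were used for levels and for limma.

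Transcript counts were added up by gene and rounded to whole numbers. The two-sided quasi-likelihood test of edgeR 4.0.16 was used with a minimum count of 10, a minimum total of 15 and TMM factors from 0.293 to 2.35, and genes were called where p adjusted by Benjamini-Hochberg over all tested genes was under 0.05. SE is the size of the fitted change over the square root of its F value. limma 3.58.1 and DESeq2 1.42.0 in R 4.3.3 were alternatives. Markers outside the fit were tested by exact permutation on CPM scaled by TMM, with unadjusted p. Ratios use counts summed per group over effective library sizes, with a floor of 3 counts. The scales of library totals and of genes that every cell uses for the exact tests were added after seeing the data. Alu-like bases were found with BLAST 2.17.0 against a 7SL RNA, from which Alu derives. Gene coordinates are GRCh37.

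Named genes were the 10 markers, TPSB2, ALDH1A1, the 3 genes of each list with the highest mean TPM over all libraries, and the 5 genes most alike. The values of 1 gene that this rule names in the pan-leukocyte list are not reported here. The markers and lists were chosen with earlier results of these data known.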

Additional observations from a re-analysis of the deposited data

Results flagged for a closer look

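In 66 groups of 4 libraries with values that differed, a single library stood apart from the other 3 in 10 cases, by the gap to its nearest neighbour as a share of the range, and chance alone flags about 5% of groups. That rate does not apply to 8 of the 10 cases, where the other 3 libraries are all at 0 and any count stands apart. All values are log2(CPM scaled by TMM + 1), and 0 is a library without counts. Among the markers, shALDH1A1 replicate 3 stood at 2.83 for CD3E, on 3 counts, and at 1.604 for TPSAB1, on 1 count, with the other shALDH1A1 libraries at 0. The same library stood at 1.604 for NKG7, on 1 count, with 0 in the others. shALDH1A1 replicate 2 stood at 2.15 for TPSB2, on 2 counts, at 1.44 for VPREB3, on 1 count, at 4.31 for S100A8, on 11 counts, and at 3.50 for S100A12, on 6 counts, with 0 in the others. Among CTRL libraries, replicate 1 stood at 0.854 for S100A12, on 4 counts, with 0 in the others. CTRL replicate 3 stood at 1.51 for FCER1G, below 4.12 to 4.32 in the others. CTRL replicate 2 stood at 10.4 for IKZF3, above 4.17 to 4.58 in the others.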

How the results depend on the processing

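The count of markers called lower, 3 of 4 tested, was 8 with DESeq2, 10 with no filter on low counts, 7 with limma on log2(TPM + 1), 6 with limma on log2(TPM + 0.1) and 6 with limma without a filter, all of 10 tested, and 2 to 5 when each library was left out in turn, with 5 without CTRL replicate 2. It was 4 with RLE factors and with library totals, 2 on the scale of genes that every cell uses and 2 at an adjusted p under 0.001 with an absolute log2 fold change over 1. No marker was called higher in any of the 18 alternatives. The wider lists' 16 lower calls became 47 with DESeq2, 57 without a filter, 36, 33 and 33 with the limma settings in the same order, 2 on the scale of genes that every cell uses, 2 at the stricter threshold and 12 to 31 with a library left out. Their 0 higher calls became 4 with DESeq2, 5 with RLE factors, 11 on the scale of genes that every cell uses, 4 without a filter, 6, 5 and 4 with limma, 6 with a replicate block and 0 to 7 with a library left out. Of all tested genes, 33.0% were called lower in the main fit, 49.2% with DESeq2, 39.6% without a filter and 30.7% with limma on log2(TPM + 1). On the scale of genes that every cell uses, 5.39% were lower and 40.8% higher. Higher calls over all genes were 207 of 7971 in the main fit, 1373 of 14133 with DESeq2 and 1213 of 17310 without a filter. Shares for the remaining settings are not given. On the scale of genes that every cell uses, 14 of the 36 tested genes of the wider lists turned from a negative to a positive log2 fold change, 2 of them among those called lower (IL7R and CXCR4). Among the genes named by rule, 4 turned positive: CD68 to 1.00, CD52 to 0.59, FCER1G to 1.74 and POU2AF1 to 2.42. The cause of these changes was not tested. CSF1R, TPSAB1 and ALDH1A1 kept their direction and call in all 17 alternatives that gave them a value. For CSF1R the direction could not change, since it had 0 counts in each shALDH1A1 library and some in each CTRL library. With the replicate block, 3 markers and 13 listed genes were called lower. Libraries with the same number did not deviate together (correlations -0.35, -0.07, -0.17 and 0.14). Of 4 shALDH1A1 libraries, 0 correlated best with their own number. With so few libraries, these correlations cannot exclude that libraries of the same number were processed together. As a share of TPM, the markers took a mean of 0.0020% in shALDH1A1 in place of 0.00064% of counts. Of the exact tests, PTPRC and CD14 reached p = 0.0286 on library totals. Depth limits the markers at 1 or 0 counts in CTRL replicate 2, where an absence cannot be told from sampling.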
